A study of Mus musculus with 3 samples.

Results

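MHC class II presentation genes were followed in peripheral blood (PB) leukocytes, measured by scRNA-Seq, as 7 listed genes of the 32285 in the count tables: H2-Aa, H2-Ab1, H2-Eb1, Cd74, H2-DMa, H2-DMb1 and Ciita. They were selected on measured values, because several of them were among the genes that differed most between naive and leukemic monocytes in these same libraries, so their levels in monocytes are given as a description and no test was made. The 3 libraries came from wild type Balb/C mice, 1 library per condition: naive mice without leukemia cells, and mice carrying transplanted BBC2 SCLL cells at day 11 (D11, intermediate disease) and day 14 (D14, late disease). BBC2 is an established murine line of stem cell leukemia and lymphoma syndrome driven by an FGFR1 fusion kinase, and by the study's methods the recipients of such transplants were female and 6 to 8 weeks old. The number of mice behind each library is not given in the sources used here, so a difference between conditions cannot be told apart from a difference between mice or libraries.

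MHC class II molecules carry peptides from endocytosed proteins to the cell surface, where CD4 T cells read them. An α and a β chain pair in the endoplasmic reticulum around the invariant chain CD74, whose remnant is later swapped for antigenic peptide by the editor H2-DM in an acidic compartment. B cells and dendritic cells make these proteins constitutively, blood monocytes do so in a minority of cells or after interferon-γ, and the transactivator CIITA sets how much is made.

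Coordinates are those of GRCm38 with GENCODE vM21. H2-DMa (ENSMUSG00000037649, chr17:34119541-34139101, plus strand), H2-DMb1 (ENSMUSG00000079547, chr17:34153072-34160230, plus), H2-Ab1 (ENSMUSG00000073421, chr17:34257689-34269419, plus), H2-Aa (ENSMUSG00000036594, chr17:34282744-34287823, minus) and H2-Eb1 (ENSMUSG00000060586, chr17:34305867-34316674, plus) lie together in the MHC of chromosome 17. Ciita (ENSMUSG00000022504, plus) is on chromosome 16 from 10480059 to 10528418, and Cd74 (ENSMUSG00000024610) lies outside the MHC on another autosome. Counting by strand is not described in the sources used here, and 3 members overlap listed genes on the other strand: H2-Eb1 with Gm20513, H2-DMa with Brd2 and CR974462.4, and Ciita with Dexi. H2-DMa also overlaps CR974462.3 on its own strand, and H2-DMb1 has a near-identical neighbour, H2-DMb2, with which it could share reads.

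Class II promoters are known for a shared module of an X box, bound by RFX and CREB proteins, and a Y box, bound by NF-Y, on which CIITA assembles. The 250 bases before the RefSeq start (GRCm38.p6) were searched for GNAACT, the start of the X box, followed after 20 to 35 bases by ATTGG, the Y box, on either strand; these letters were chosen after the sequences had been seen. Of 32851 RefSeq windows of that length, 12252 (37.3%) held GNAACT, 11120 (33.8%) held ATTGG, and 194 (0.591%) held the spaced pair. Among the members, H2-Aa, H2-Eb1 and H2-DMb1 held the pair on the gene's strand, with 27, 26 and 27 bases between its parts. Neither of the windows of H2-DMa did, but both lie inside the gene as GENCODE annotates it. They do not cover the bases before that annotated start, so a pair there was not looked for. Among the other class II pathway genes looked at by name, H2-Eb2 and the costimulatory gene Icosl held the pair. The windows of the class II loci H2-DMb2, H2-Oa and H2-Ob did not. These windows also overlap their genes as GENCODE annotates them, so no absence of the pair before those genes is read. H2-Ab1, Ciita and Cd74 were not searched. The windows of the chain genes are shown because their levels ran together across cell classes, with the pair in capitals (H2-Aa at chr17:34287824-34288073 on the minus strand, H2-Eb1 at chr17:34305617-34305866 on the plus strand). BALB/c carries another MHC haplotype than the reference strain, so the letters are those of the reference.
H2-Aa: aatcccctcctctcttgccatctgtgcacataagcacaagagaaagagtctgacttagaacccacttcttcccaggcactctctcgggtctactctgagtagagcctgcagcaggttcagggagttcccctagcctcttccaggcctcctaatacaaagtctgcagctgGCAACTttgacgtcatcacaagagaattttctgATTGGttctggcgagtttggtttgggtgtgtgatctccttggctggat
H2-Eb1: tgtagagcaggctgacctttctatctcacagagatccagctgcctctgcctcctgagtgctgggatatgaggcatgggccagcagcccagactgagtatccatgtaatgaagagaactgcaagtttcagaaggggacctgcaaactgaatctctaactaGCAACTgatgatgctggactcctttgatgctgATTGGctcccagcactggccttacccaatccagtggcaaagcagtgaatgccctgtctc
The X box began 81 bases before the start in H2-Aa, 91 in H2-Eb1 and 94 in H2-DMb1. The last lies within the gene as GENCODE annotates it and its window is not printed. A match describes these letters only.

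Of 5386 naive, 8536 D11 and 9337 D14 barcodes, 3695, 4400 and 4258 cells were kept, from 30362408, 57640396 and 65861863 unique molecular identifiers (UMIs) in all, with medians of 5854, 6223 and 6730.5 per kept cell. Each cell took a class from fixed panels of marker genes that hold no class II gene, and 5.44%, 4.50% and 8.20% of cells stayed mixed between panels. There were 148, 242 and 132 classical monocytes (cMono), 134, 207 and 634 non-classical monocytes (ncMono), 399, 271 and 47 B cells, and 3, 83 and 520 leukemia cells, in the order naive, D11 and D14. The 47 B cells of D14 are under the minimum of 50 cells set for a class, and the dendritic panel found only 7, 4 and 0 cells, so every D14 value of B cells comes from a class below that minimum. Panel genes were higher in their own class than in all other cells for 8 of 8 cMono, 12 of 12 ncMono, 9 of 9 B and 11 of 12 leukemia genes, and none of the 10 leading genes of these classes belonged to another panel. The same panel genes set the classes, so these counts were largely fixed in advance and are no independent check of them. Libraries shared 12 to 18 barcodes pairwise, of which 3 or 4 were cells kept in both. Values below are UMIs of a gene per 1000000 UMIs (CPM) of the summed class, and brackets hold exact 95% intervals that cover counting error only, with cells taken as given.

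The α and β chains of I-A and the β chain of I-E were below B cells in naive monocytes and lowest in monocytes at D14. H2-Aa, the I-A α chain, was at 287 [263 to 313] CPM in naive cMonos, 70.7 [61.8 to 80.4] at D11 and 11.4 [7.91 to 16.0] at D14. In ncMonos it was at 221 [194 to 251], 372 [344 to 400] and 2.65 [1.54 to 4.24] CPM. B cells held 2280 [2220 to 2340], 2450 [2370 to 2530] and 1300 [1190 to 1410] CPM. The D14 library was thus lowest in all 3 classes, while D11 lay between in cMonos and on top in ncMonos. T cells, which should lack class II, held 1.31 [0.731 to 2.16], 1.54 [0.317 to 4.49] and 2.22 [0.269 to 8.02] CPM of H2-Aa, and neutrophils held 2.70 [1.35 to 4.83], 4.94 [3.19 to 7.29] and 2.53 [1.35 to 4.33] CPM. The D14 level of ncMonos was inside the intervals of both, while that of cMonos was above their values.

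H2-Ab1, the I-A β chain, was at 247 [225 to 270], 43.1 [36.3 to 50.9] and 5.38 [3.07 to 8.73] CPM in cMonos. In ncMonos it was at 227 [199 to 257], 271 [248 to 296] and 4.36 [2.90 to 6.30] CPM. In B cells it was at 1510, 1610 and 904 CPM. In both monocyte classes the D14 interval lay apart from the naive one. T cells held 3.57 [2.56 to 4.85], 15.4 [10.4 to 21.9] and 6.66 [2.44 to 14.5] CPM of H2-Ab1 at medians of 8895, 6686.5 and 7367 UMIs per cell. Neutrophils held 4.91 [3.0 to 7.58], 4.34 [2.72 to 6.58] and 2.34 [1.21 to 4.09] CPM. The D14 level of both monocyte classes was inside the T cell interval, which rests on 6 UMIs, and above the neutrophil value, with a log2 ratio to neutrophils of 1.20 [0.03 to 2.41] in cMonos and 0.90 [-0.12 to 2.01] in ncMonos.

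H2-Eb1, the I-E β chain, was at 103 [88.6 to 118], 21.4 [16.7 to 27.1] and 1.68 [0.546 to 3.92] CPM in cMonos and at 155 [133 to 181], 190 [170 to 210] and 1.40 [0.641 to 2.66] CPM in ncMonos. B cells held 1550, 1570 and 951 CPM. The D14 sums rested on 5 UMIs in cMonos and 9 in ncMonos, and T cells at D14 were at 3.33 [0.687 to 9.73] CPM, and neutrophils at 1.36 [0.549 to 2.81] CPM, so these levels are read as background. The I-E α chain is not among the listed features.

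**Figure D1:**
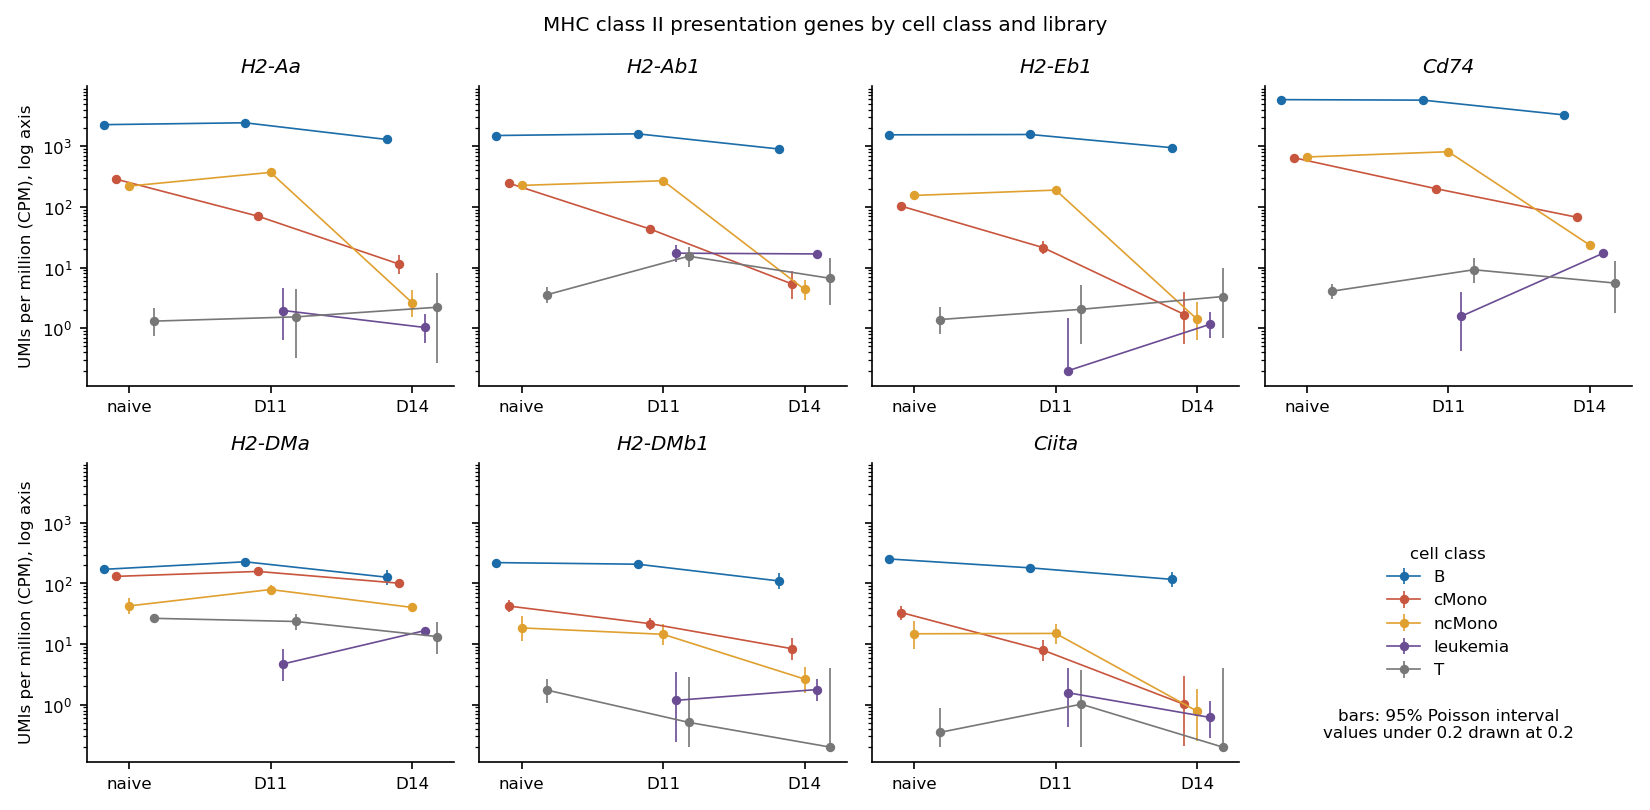
Level of each gene in UMIs per 1000000 (log axis) in the naive, D11 and D14 libraries, as points with 95% Poisson intervals for B cells, cMonos, ncMonos, leukemia cells and T cells. The chain genes, Cd74, H2-DMb1 and Ciita of both monocyte classes are lowest at D14, B cells stay above the other 4 classes, and H2-DMa of monocytes stays between 40.3 and 158 CPM.

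Cd74, the invariant chain that escorts and protects new class II pairs, was at 648 [612 to 686], 201 [186 to 217] and 67.6 [58.5 to 77.6] CPM in cMonos. It was at 668 [620 to 719], 816 [775 to 858] and 23.5 [19.9 to 27.6] CPM in ncMonos, and at 5900, 5790 and 3300 CPM in B cells. Cd74 stayed above T cells (5.55 [1.80 to 13] CPM) in both monocyte classes at D14. It was held by 51 of 132 cMonos there, against 44 of 148 in the naive library, with median depths of 21353.5 and 12455 UMIs per cell. When cells were thinned to 1000 UMIs each the shares were 26 of 148 (17.6% [11.8 to 24.7]), 16 of 242 (6.61% [3.83 to 10.5]) and 11 of 132 (8.33% [4.23 to 14.4]). The naive and D14 shares thus changed places with depth, and their thinned intervals overlapped.

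The peptide editor is a pair of H2-DMa and H2-DMb1, and its chains differed. H2-DMa was at 131 [115 to 149], 158 [144 to 172] and 101 [89.8 to 113] CPM in cMonos and at 42.6 [31.2 to 56.8], 79.5 [67.2 to 93.3] and 40.3 [35.6 to 45.6] CPM in ncMonos. H2-DMb1 was at 42.4 [33.5 to 52.9], 21.7 [17.0 to 27.4] and 8.40 [5.44 to 12.4] CPM in cMonos and at 18.5 [11.3 to 28.6], 14.5 [9.55 to 21.1] and 2.65 [1.54 to 4.24] CPM in ncMonos. H2-DMa was thus the member whose D14 level stayed nearest to naive, and it was held by 102 of 132 cMonos at D14. T cells held 26.6, 23.6 and 13.3 CPM of H2-DMa, where neutrophils held 1.96, 3.16 and 3.51 CPM.

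Ciita, the transactivator, had 61 UMIs in naive cMonos and 16 in naive ncMonos. It was at 33.1 [25.4 to 42.6], 7.95 [5.19 to 11.7] and 1.01 [0.208 to 2.95] CPM in cMonos and at 14.8 [8.46 to 24.0], 15.0 [9.99 to 21.7] and 0.779 [0.253 to 1.82] CPM in ncMonos. Its D14 values rested on 3 UMIs in cMonos and 5 in ncMonos. In B cells it was at 254 [234 to 274], 181 [160 to 203] and 117 [87.1 to 155] CPM, and each of these intervals lay apart from the others.

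Set against naive, the D14 log2 ratio in cMonos was -4.65 [-5.20 to -4.15] for H2-Aa, -5.52 [-6.34 to -4.80] for H2-Ab1 and -5.93 [-7.57 to -4.69] for H2-Eb1, that is 25.2-fold, 45.9-fold and 61.1-fold lower. The D14 levels of H2-Ab1 and H2-Eb1 rest on 16 and 5 UMIs and were within the T cell intervals. The order of these folds is therefore not read. For Cd74 the log2 ratio was -3.26 [-3.49 to -3.05], for H2-DMb1 -2.33 [-3.05 to -1.67] and for Ciita -5.04 [-7.36 to -3.42]. The smallest was that of H2-DMa, at -0.38 [-0.63 to -0.13]. Of the 5 members with at least 50 CPM in either library, 4 were lower by at least 2-fold (H2-Ab1, H2-Aa, H2-Eb1 and Cd74), beside 3.63% of 3909 genes tested in the same way. Since these members were selected for that difference, nothing is read from the count. The median log2 ratio was -4.54 over these 5 members and 0.02 over all genes tested. For the same reason nothing is read from that contrast.

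In ncMonos the D14 log2 ratio was -6.38 [-7.19 to -5.68] for H2-Aa, -5.70 [-6.32 to -5.13] for H2-Ab1, -6.79 [-7.95 to -5.83] for H2-Eb1 and -4.83 [-5.09 to -4.57] for Cd74. It was -2.81 [-3.83 to -1.80] for H2-DMb1, -4.25 [-6.05 to -2.73] for Ciita and -0.08 [-0.53 to 0.41] for H2-DMa. In both classes the interval of H2-DMa lay apart from those of the other members. In ncMonos the D14 levels of the chain genes were within the T cell intervals, so the order of their ratios is not read. All 4 members tested, the chain genes and Cd74, were lower by at least 2-fold, beside 2.71% of 3949 genes, and again this is the contrast they were selected on.

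At D11 the monocyte classes differed in direction for the chain genes and Cd74, but not for H2-DMa or H2-DMb1. In cMonos the log2 ratio to naive was -2.02 [-2.25 to -1.80] for H2-Aa, -2.52 [-2.80 to -2.24] for H2-Ab1, -2.26 [-2.68 to -1.86] for H2-Eb1, -1.69 [-1.83 to -1.55] for Cd74 and -2.06 [-2.78 to -1.38] for Ciita. In ncMonos it was 0.75 [0.53 to 0.97] for H2-Aa, 0.26 [0.03 to 0.48] for H2-Ab1, 0.29 [0.02 to 0.56] for H2-Eb1, 0.29 [0.16 to 0.42] for Cd74 and 0.02 [-0.91 to 1.01] for Ciita. H2-DMa was at 0.27 [0.04 to 0.49] in cMonos and 0.90 [0.41 to 1.41] in ncMonos. H2-DMb1 was at -0.96 [-1.45 to -0.48] in cMonos and -0.35 [-1.24 to 0.56] in ncMonos. Of 5 members tested in each, 4 were lower by at least 2-fold in cMonos (0.586% of 3753 genes) and 0 in ncMonos (1.15% of 3930 genes). The members were selected on differences between naive and leukemic monocytes of these libraries, so nothing is read from these counts.

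The summed UMIs of H2-Ab1, H2-Aa, H2-Eb1 and Cd74 gave 1290 [1230 to 1340], 336 [316 to 356] and 86.1 [75.8 to 97.3] CPM in cMonos and 1270 [1210 to 1340], 1650 [1590 to 1710] and 31.9 [27.7 to 36.6] CPM in ncMonos. For cMonos this sum gave a log2 ratio of D11 over naive of -1.94 [-2.04 to -1.83], and of D14 over naive of -3.90 [-4.09 to -3.71]. The same ratios in ncMonos were 0.37 [0.28 to 0.47] and -5.32 [-5.53 to -5.10]. The naive classes thus started level (1.01-fold apart) and D11 ncMonos were 4.91-fold above D11 cMonos. T cells held 10.4, 28.2 and 17.8 CPM of this sum and neutrophils 25, 22.9 and 11.7 CPM.

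**Figure D2:**
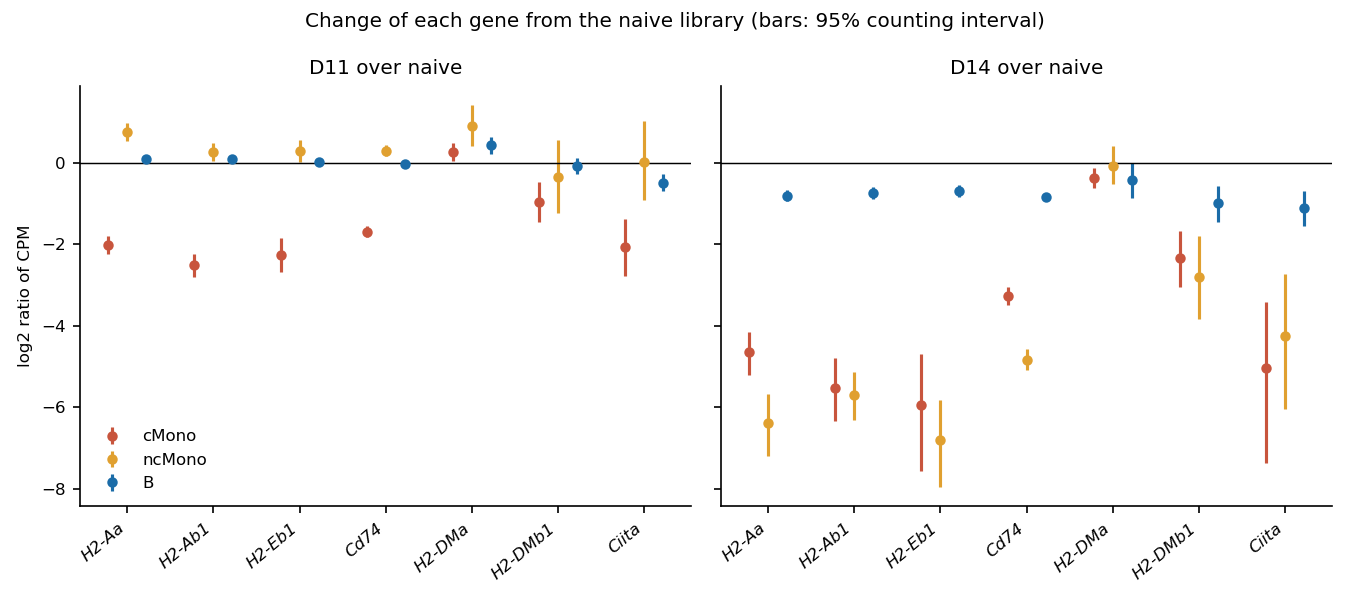
Log2 ratio of CPM to the naive library for each gene at D11 (left) and D14 (right) in cMonos, ncMonos and B cells, with 95% counting intervals. At D11 the chain genes and Cd74 lie below 0 in cMonos and above 0 in ncMonos, at D14 they lie between -3.26 and -6.79 in both, and H2-DMa stays within 1 of 0 in all 3 classes.

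These sums came from few cells. In the naive library 101 of 148 cMonos (68.2%) and 90 of 134 ncMonos (67.2%) held no UMI of the 4 genes, and 3 cMonos and 2 ncMonos held at least 50% of them. The highest naive cMono had 438 class II UMIs per 10000, above the highest naive B cell (341), whereas the highest D14 cMono had 28.1 and the highest D14 ncMono 23.1. The median B cell had 108, 112 and 78.4 per 10000. Most monocytes thus held none, a few in the naive and D11 libraries reached the level of B cells, and none at D14 reached the median B cell. Counting intervals do not cover which cells were drawn, so ratios resting on so few cells are less certain than their brackets. Without the 3 cells richest in class II UMIs in each library, an alternative chosen after seeing the data, the cMono log2 ratios were -1.88 at D11 and -3.78 at D14. For ncMonos they were 1.62 and -4.27, and since 2 naive but 9 D11 ncMonos hold at least 50% of the UMIs, leaving out 3 cells takes more from the naive sum.

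**Figure D3:**
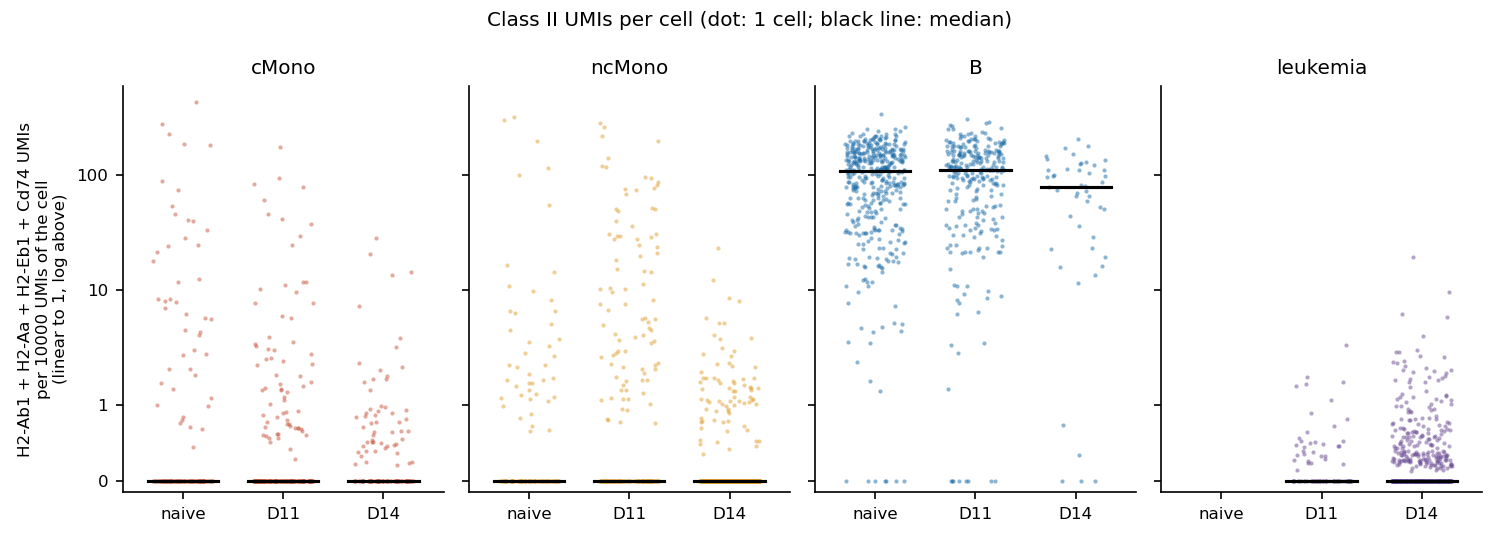
UMIs of H2-Ab1, H2-Aa, H2-Eb1 and Cd74 per 10000 UMIs in each cell (linear up to 1, log above) by class and library, with black lines at the medians. Most monocytes sit at 0, those of the naive and D11 libraries reach the range of B cells, and the highest at D14 is 28.1 in cMonos and 23.1 in ncMonos.

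Cells holding at least 1 UMI of each of H2-Ab1, H2-Aa and H2-Eb1 numbered 13 of 148 cMonos in the naive library (8.78% [4.76 to 14.6]), 10 of 242 at D11 (4.13% [2.0 to 7.47]) and 2 of 132 at D14 (1.52% [0.184 to 5.37]). With each cell thinned to 1000 UMIs they were 6 of 148 (4.05% [1.5 to 8.61]), 1 of 242 (0.413% [0.0105 to 2.28]) and 0 of 132, which at a floor of 3 cells allows a share of up to 2.27%. The D14 cells were deeper than the naive ones, with medians of 21353.5 and 12455 UMIs, and a difference in the share was not tested. Among T cells 1 of 1277, 0 of 274 and 0 of 114 held all 3 before thinning, and of neutrophils 0 of 1180, 0 of 1438 and 0 of 1210, at medians of 3359, 3124 and 3561 UMIs.

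In ncMonos, 8 of 134 naive cells (5.97% [2.61 to 11.4]), 29 of 207 at D11 (14.0% [9.59 to 19.5]) and 1 of 634 at D14 (0.158% [0.00399 to 0.876]) held all 3 chain genes. Thinning left out 2, 1 and 4 shallower cells and gave 5 of 132 (3.79% [1.24 to 8.62]), 10 of 206 (4.85% [2.35 to 8.75]) and 0 of 630. At the floor of 3 cells, which is not an exact interval, the last allows up to 0.476%. Here the intervals of D14 and of the other libraries did not overlap. The naive and D11 intervals did, both before and after thinning.

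The 13 naive cMonos with all 3 chain genes carried 88.1% of the class II sum of their class, at a median depth (12381 UMIs) near that of the 120 cMonos with none of the 3 (12475.5 UMIs). They held every other member at a higher level: 5970 against 54.4 CPM of Cd74, 473 against 90.7 of H2-DMa, 332 against 10.7 of H2-DMb1 and 191 against 10.7 of Ciita. These differences follow partly from how the cells were chosen, and are given as a description. Ccr2, the chemokine receptor of classical monocytes, was held by 13 of 13 at 1150 against 1130 CPM, and Ly6c2, the other classical surface marker, was at 553 against 965 CPM. Both groups had already been classed as cMonos by marker genes, so these levels are no independent check of that class. Ace, a leading gene of ncMonos, was at 92.2 against 32.9 CPM, a log2 ratio of 1.49 [0.55 to 2.35]. Treml4, a macrophage and dendritic marker in the paper, was at 12.3 against 20.1 CPM, a log2 ratio of -0.71 [-3.82 to 1.27]. Depth was not matched in ncMonos. Those with all 3 chain genes had medians of 10503.5 (naive) and 12053 (D11) UMIs, against 7194 and 7320.5 in those with none. Ccr2 was higher in the former at D11, at 190 against 67.6 CPM, a log2 ratio of 1.49 [1.01 to 1.98]. In naive ncMonos it was at 161 against 177 CPM. Whether depth or remaining doublets had a part in these groups was not tested.

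Markers of other class II-bearing cells were looked for in the 13 naive cMonos. The gates send cells rich in B cell panel genes to another class or to the mixed cells, which limits what could remain. For dendritic genes the limit is weaker, because no cell is called mixed between the dendritic and monocyte panels. A cell with dendritic genes left the cMonos only where the dendritic panel had at least as large a share. Of the B cell genes Cd79a, Cd79b and Ms4a1, 1 UMI of Cd79b was found and 0 of the others. Of the dendritic genes, Xcr1, Clec9a, Siglech, Zbtb46, Ccr7 and Itgax were at 0 UMIs. The 120 cells held only 0, 1, 0, 6, 4 and 1 UMIs of these, so the counts of 0 do not separate the groups. Other dendritic genes were higher than in the 120 cells. Cd209a was at 49.2 against 8.73 CPM (2 cells), a log2 ratio of 2.49 [1.02 to 3.87], and Batf3 at 197 against 65.1 CPM (9 cells). Flt3 was at 36.9 against 26.2 CPM (3 cells) and Clec10a at 30.7 against 12.1 CPM (3 cells), with intervals of the ratio that include 0. Among the 29 D11 ncMonos with all 3 chain genes, Ms4a1 and Cd79a had 1 UMI each, but Ebf1, a B lineage transcription factor, was at 319 against 5.84 CPM with all its UMIs in 3 cells. At D11 the 10 cMonos with all 3 genes held 254 CPM of Cd209a (4 cells), a lectin of monocyte-derived dendritic cells, against 9.80 CPM, and 208 CPM of Flt3, the dendritic growth factor receptor (4 cells), against 33.6 CPM. Leaving out every monocyte with a UMI of 7 dendritic genes gave log2 ratios in cMonos of -2.78 at D11 and -4.09 at D14, and in ncMonos of 0.16 and -5.97. Leaving out those with a UMI of a B cell gene gave -2.56 at D11 in cMonos and 0.28 in ncMonos. The directions in these alternatives were those of the main values.

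By a fixed rule, the 5 genes with the largest ratio in the 13 naive cells over the 120, members and panel genes left out, were Spon1, Plxdc2, Zfp36l1, Lsamp and Plcl1. Spon1, an extracellular matrix protein, was at 252 against 5.37 CPM (7 of 13 cells), Plxdc2, a plexin domain receptor, at 135 against 4.03 (6 cells), and Zfp36l1, an RNA-binding protein that promotes mRNA decay, at 141 against 22.2 (7 cells). Plcl1, a phospholipase C-like protein, was at 406 against 72.5 CPM in 11 of 13 cells, while all Lsamp UMIs of the group lay in 1 cell. Plcl1 was also higher in the class II cells among ncMonos, with 676 against 81.8 CPM in the naive library and 448 against 122 at D11, and was at 45.5 against 74.5 CPM among D11 cMonos. Of genes noticed after the values were seen, Tmem176b, a membrane protein of antigen-presenting cells, and Aif1, an actin-binding protein of macrophages, were higher in the class II cells of both classes in the naive and D11 libraries. Tmem176b stood at 357 against 82.6 CPM and Aif1 at 387 against 95.4 in naive cMonos. At D11, 4 of the 5 leading genes of the 10 class II cMonos encoded hemoglobin, with 15900 against 1550 CPM of Hbb-bs, and the part of that red cell RNA in the class II values was not tested.

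**Figure D4:**
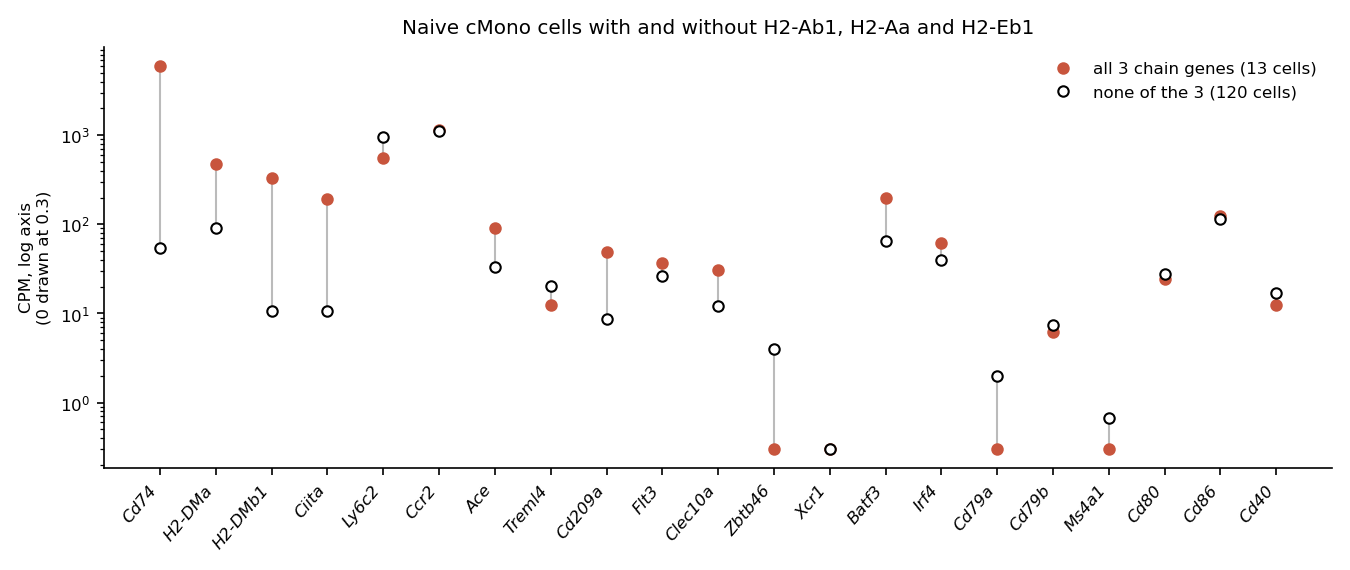
CPM (log axis) of class II, monocyte, dendritic, B cell and costimulation genes in naive cMonos that hold all of H2-Ab1, H2-Aa and H2-Eb1 (13 cells, filled) and in those that hold none (120 cells, open). Ccr2 is level, the other class II members are higher in the former, and the B cell genes are at 0 to 6.15 CPM in them.

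B cells held more of each member than monocytes or T cells in every library, although for H2-DMa at D14 their interval overlapped that of cMonos. At D11, 0 of 7 members were lower by at least 2-fold (0.273% of 3659 genes), and the class II sum was at 11400 CPM against 11200 in the naive library, a log2 ratio of 0.02. At D14, with 47 B cells, the sum was at 6450 [6210 to 6700] CPM, a log2 ratio of -0.80 [-0.86 to -0.74], and 1 of 7 members, Ciita, was lower by at least 2-fold (3.45% of 4000 genes). The ratios of H2-Aa, H2-Ab1, H2-Eb1 and Cd74 lay between -0.84 and -0.70. Among B cells the share with all 3 chain genes was 82.7%, 81.2% and 85.1%, and 47.1%, 47.9% and 48.9% after thinning, and these shares had overlapping intervals.

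RNA of leukemia genes stood beside the D14 value of B cells: 9 of 47 (19.1%) held a UMI of Igll1, Vpreb1, Vpreb2, Dntt or Erg, against 0 of 399 in the naive library and 8 of 114 T cells (7.02%) at D14. Without those 9 cells the B cell sum was 7800 CPM and the log2 ratio -0.53 [-0.59 to -0.46]. The B cell receptor gene Cd79b was also lower at D14, at 662 against 1250 CPM, as was Ms4a1, the CD20 antigen, at 531 against 955 CPM. The 4 listed B cell markers did not move alike, with log2 ratios from -0.92 to -0.06 and a median of -0.78. Of these 4, 0 were lower by at least 2-fold, beside 3.45% of all genes. Fewer class II transcripts per B cell and another make-up of the B cells drawn cannot be told apart.

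The paper describes the BBC2 leukemia as pro-B-cell-like, whereas the B cells compared here were classed by genes such as Ms4a1, Fcer2a and Ighd. The classes may thus differ in stage of maturation, and the part of stage in the values below was not tested. Leukemia cells carried B lineage genes but almost no class II. At D14 they held 749 CPM of Cd79a, 658 CPM of Pax5 and 3920 CPM of Ebf1, the last 2 being transcription factors of B cell identity, where B cells held 963, 1050 and 4710 CPM. The class II sum was at 20.8 [15.6 to 27.2] CPM at D11 and 36.0 [33.0 to 39.3] at D14, a log2 ratio to B cells of D14 of -7.48 [-7.62 to -7.35], or 179-fold lower. H2-Aa was at 1.96 and 1.03 CPM, H2-Eb1 at 0 and 1.16, H2-DMb1 at 1.18 and 1.78, and Ciita at 1.57 and 0.617. Apart from H2-Eb1 at D11, with 0 UMIs, each of these was within the interval of T cells from the same library. None of 83 or of 520 leukemia cells held all 3 chain genes, at median depths of 29906 and 27872.5 UMIs. At the floor of 3 cells, which is not an exact interval, this allows shares of up to 3.61% and 0.577%.

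H2-Ab1 and Cd74 were above the T cells of the same library in leukemia cells at D14. H2-Ab1 was at 16.8 [14.8 to 19.0] CPM there, in 171 of 520 cells, against 6.66 [2.44 to 14.5] in T cells and 2.34 [1.21 to 4.09] in neutrophils, while at D11 it was at 17.3 [12.5 to 23.2] against 15.4 [10.4 to 21.9] in T cells. Cd74 was at 1.57 [0.428 to 4.02] CPM at D11 and 17.1 [15.0 to 19.3] at D14. H2-DMa was at 4.71 [2.43 to 8.22] and 16.7 [14.6 to 18.9] CPM, the latter within the T cell interval. The log2 ratio of D14 to D11 was 3.44 [2.07 to 5.33] for Cd74, 1.82 [0.99 to 2.80] for H2-DMa and -0.04 [-0.51 to 0.46] for H2-Ab1. The Cd74 ratio thus rests on 4 UMIs at D11 and on a minority of cells at D14.

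The balance of the I-A chain genes set these UMIs apart. Of all UMIs of H2-Aa and H2-Ab1, H2-Aa made up 60.2% [59.2 to 61.2], 60.3% [59.1 to 61.5] and 59.0% [55.8 to 62.2] in B cells. It made up 53.8% [50.6 to 57.0], 62.1% [57.0 to 67.0] and 68.0% [53.3 to 80.5] in cMonos, and 49.4% [44.8 to 53.9], 57.8% [55.0 to 60.6] and 37.8% [23.8 to 53.5] in ncMonos. Leukemia cells stood at 10.2% [3.40 to 22.2] in the D11 library and 5.77% [3.26 to 9.34] in the D14 library. The share was, in naive and D11 T cells 26.8% [15.8 to 40.3] and 9.09% [1.92 to 24.3], and in naive and D11 NK cells 5.26% [0.133 to 26.0] and 6.25% [0.158 to 30.2]. The H2-Ab1 UMIs of leukemia, T and NK cells thus came largely without H2-Aa, and in each of these sums the interval lay below that of B cells from the same library. The naive monocytes and D14 ncMonos were also below B cells, by less, as were naive neutrophils at 35.5% [19.2 to 54.6]. For neutrophils at D11 (53.2% [38.1 to 67.9]) and D14 (52.0% [31.3 to 72.2]) and for T cells at D14 (25% [3.19 to 65.1]) the intervals overlapped those of B cells.

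**Figure D5:**
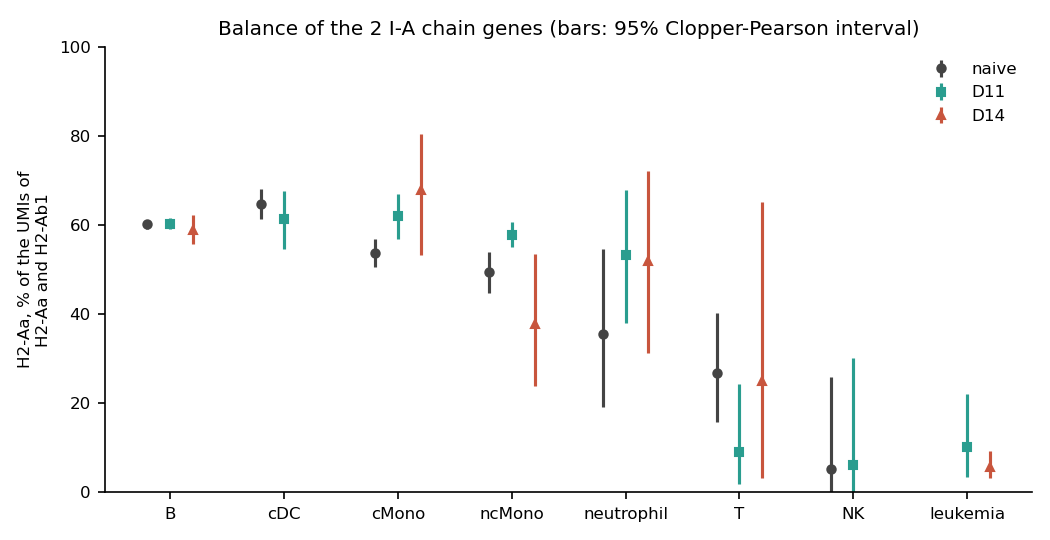
H2-Aa as a percent of the UMIs of H2-Aa and H2-Ab1 by cell class and library, with 95% Clopper-Pearson intervals. B cells lie at 59.0 to 60.3%, monocytes at 37.8 to 68.0%, and leukemia cells at 5.77 and 10.2%. The dendritic class holds 7 and 4 cells.

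Over 21 sums of a class and a library, H2-Ab1 was compared with genes that reached 50 CPM in at least 1 sum. The 5 genes most like it in level were other members. Pearson's r of log2(CPM + 1) was 0.959 for Ciita, 0.943 for H2-Eb1, 0.917 for H2-Aa, 0.903 for Cd74 and 0.870 for H2-DMb1, among 6839 genes. H2-DMa ranked at 31 with 0.717. The sums share libraries and differ in depth and cell number, so these values are a description. They include the monocyte sums on which the members were selected, so the ranking follows partly from that selection.

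Outside the 7 members, the rest of the class II pathway was examined by lists in D14 against naive. The other class II loci H2-DMb2, H2-Oa, H2-Ob and H2-Eb2 were all under 50 CPM in monocytes. In B cells H2-DMb2, the second DM β chain, was at 397, 341 and 193 CPM, and H2-Oa, a chain of the DM inhibitor H2-O, was at 86.9, 85.3 and 28.2 CPM, so that 2 of the 3 of these genes tested were lower by at least 2-fold at D14 (3.45% of all genes, in 47 cells). Of 7 factors that bind class II promoters, 2 reached 50 CPM in cMonos and in ncMonos and 0 differed by 2-fold, which with 2 genes is not informative beside 3.63% lower and 4.25% higher of all genes in cMonos and 2.71% and 3.62% in ncMonos. Creb1, a partner in X box binding, was at 120 and 111 CPM in naive and D14 cMonos and Nfyc, an NF-Y subunit, at 63.0 and 56.1 CPM.

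Other listed genes prepare antigen. Of 6 proteases and reductases, 1 was lower and 1 higher by at least 2-fold in each monocyte class at D14, beside 3.63% lower and 4.25% higher of all genes in cMonos and 2.71% and 3.62% in ncMonos. Lgmn, an asparaginyl protease that starts invariant chain breakdown, was at 78.8, 51.1 and 36.0 CPM in cMonos and 82.4, 75.2 and 33.6 CPM in ncMonos. Ctsd, an aspartic protease, was at 98.4, 128 and 199 CPM in cMonos and 95.3, 93.4 and 219 CPM in ncMonos. Ctss, the protease that trims the invariant chain, was at 1510, 1190 and 812 CPM in cMonos and 1480, 1190 and 1000 CPM in ncMonos. Ifi30, the lysosomal thiol reductase, was at 478, 637 and 781 CPM in cMonos. The lists' median log2 ratios were 0.18 and 0.19, next to 0.02 and 0.01 over all genes.

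Interferon-γ signalling induces Ciita. Of 19 genes of that pathway, 9 reached 50 CPM in cMonos and 0 differed by 2-fold at D14, near the 3.63% lower and 4.25% higher of all genes, and the list median was -0.07. In ncMonos 8 did and 1 was higher (3.62% of all genes), Gbp2, an interferon-induced GTPase, at 14.8, 23.1 and 53.1 CPM, with a list median of 0.18. Ifngr1, the ligand-binding chain of the interferon-γ receptor, was at 499, 473 and 397 CPM in cMonos and 614, 690 and 510 CPM in ncMonos. Of 5 listed repressors and activators of Ciita, 2 reached 50 CPM in cMonos and 0 differed by 2-fold at D14. In ncMonos 3 did and 1 was lower, Prdm1, beside 2.71% of all genes. So few genes are not informative beside the shares of all genes. Prdm1, a repressor of Ciita in plasma cells, was at 12.9 against 52.8 CPM in D14 and naive ncMonos. In cMonos it was at 5.04 against 26.1 CPM, under the 50 CPM needed.

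March1, the ligase that removes class II from the surface, was at 612, 546 and 526 CPM in cMonos and 852, 690 and 671 CPM in ncMonos. Of the costimulatory genes, Cd86 was at 120, 90.5 and 61.8 CPM in cMonos and 136, 90.7 and 89.9 CPM in ncMonos, whereas Cd80 was at 27.2, 27.2 and 47.4 CPM and at 42.6, 31.7 and 82.1 CPM. Of the 4 listed costimulatory genes, 1 reached 50 CPM in cMonos and 2 in ncMonos, and 0 differed by 2-fold at D14. The nearest were Cd86 in cMonos, at a log2 ratio of -0.95, and Cd80 in ncMonos, at 0.93. Of the 3 listed genes of surface turnover, March1 among them, 1 and 2 were tested and 0 differed. So few genes are not informative beside 3.63% lower and 4.25% higher of all genes in cMonos and 2.71% and 3.62% in ncMonos. Among the dendritic genes, Batf3, a transcription factor of conventional dendritic cells, was at 80.4, 46.8 and 15.5 CPM in cMonos and 20.4, 16.6 and 1.25 CPM in ncMonos, and was the only 1 of that list tested in cMonos. Itgax, the CD11c integrin, was at 65.7, 162 and 124 CPM in ncMonos.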

How the data were processed

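Blood leukocytes, depleted of red and dead cells, had been profiled with the 10x 3′ chemistry, and the authors deposited a matrix of raw UMI counts per gene and barcode for each library. The submitters' notes name Cell Ranger 7.1.0 and mm10, while the matrix headers name cellranger 5.0.1. Barcodes under 200 genes or over 10% mitochondrial UMIs were dropped, as were the cells with the highest Scrublet scores (scanpy 1.11.5), taken as 0.8% of cells per 1000 cells, which came to 116, 167 and 156 for naive, D11 and D14. Of the classes with UMIs of at least 3 panel genes (for leukemia also 1 B lineage gene), a cell took that with the largest share of its panel held. It was left as mixed where a class of another family reached 50% of that share. B, leukemia and plasma cells formed a family, as did T and NK cells, and cMonos, ncMonos and dendritic cells. Each other class stood alone. Cells with 25% hemoglobin UMIs or more were erythroid. Counts were summed per class and library and divided by the class total. Exact 95% intervals (Poisson, conditional binomial, Clopper-Pearson; scipy 1.17.1) cover counting error only, UMIs of 1 cell not being independent. With 1 library per condition no test was made and no p-value is given. A gene was compared over all genes where it reached 50 CPM in either library, with 1 CPM added, and called at 2-fold. The floor for a count of 0 was 3 counts. The genes named were the 7 members, listed pathway genes, the 5 genes most correlated with H2-Ab1, and the 5 with the largest ratio in class II naive cMonos at 100 CPM or more. The members and lists were chosen with earlier results of these data known. The scripts were tested on simulated data. Of the 32285 features, 32158 were found in GENCODE vM21. Alternatives covered filters, doublets, panels, mixed cells, B cell or dendritic RNA, thinning and scaling (TMM from edgeR 4.0.16 in R 4.3.3). Python 3.11.15, numpy 2.4.6 and matplotlib 3.10.9 were used.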

Additional observations from a re-analysis of the deposited data

Results flagged for a closer look

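At D11 the chain genes and Cd74 differed from naive in opposite directions in the monocyte classes. H2-DMa and H2-DMb1 did not, with log2 ratios in cMonos and ncMonos of 0.27 and 0.90, and of -0.96 and -0.35. The log2 ratio in cMonos and ncMonos was -1.94 and 0.37 for the sum of 4 genes, -2.52 and 0.26 for H2-Ab1, -2.02 and 0.75 for H2-Aa, -2.26 and 0.29 for H2-Eb1, and -1.69 and 0.29 for Cd74. With 1 library per condition the difference between the classes was not tested.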

How the results depend on the processing

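Of 90 alternatives to 9 values, 63 stayed within the counting interval of the value as reported (for the gene count, within 1.5 times), 27 moved and 0 reversed direction. For the class II sum, log2 D11 over naive in cMonos was -2.44 with 2 panel genes, -2.56 without cells holding B cell RNA and -2.78 without those holding dendritic RNA, and D14 over naive was -4.09 without the latter. In ncMonos D11 over naive was 0.63 with doublets kept, 0.28 without B cell RNA, 0.16 without dendritic RNA, 0.58 as the mean of cells, and 1.62 without the 3 richest cells per library. D14 over naive there was -5.08 with mixed cells kept, -5.97 without dendritic RNA and -4.27 without the 3 richest cells. In B cells at D14 it was -0.68 with stricter barcode filters, -0.93 with all barcodes, -0.95 with 4 panel genes, -1.36 with mixed cells kept, -0.53 without cells holding leukemia RNA, -1.03 with TMM factors and -0.43 as the mean of cells. Leukemia over B cells was -7.66 with stricter filters, -7.33 with 4 panel genes, -6.54 with mixed cells kept, and -7.76 both without B cells holding leukemia RNA and as the mean of cells. The share of naive cMonos with all 3 chain genes was 8.78% when not thinned. Genes past 2-fold between naive and D14 cMonos numbered 308, 599 at a minimum of 20 CPM and 80 at 200 CPM. The alternatives without the richest cells and without B cells holding leukemia RNA were chosen after seeing the data, and the causes of these shifts were not tested. No paired analysis was possible because each condition has 1 library, and for the same reason no replicate could be left out. Few cells hold most monocyte class II UMIs, which limits every monocyte value.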
